A study of Mus musculus with 6 samples.

Results

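Cobalamin (vitamin B12) is carried into cells on transcobalamin, released in the lysosome and turned into the 2 cofactors that mammalian enzymes use. Methylcobalamin serves methionine synthase in the cytosol, and adenosylcobalamin serves methylmalonyl-CoA mutase in mitochondria. Between them stands MMACHC, which strips the upper ligand from incoming cobalamin, and loss of MMACHC in people causes the cblC type of methylmalonic aciduria with homocystinuria, a disorder that often damages the retina. THAP11 (Ronin), its cofactor HCFC1 and the zinc finger protein ZNF143 are known regulators of MMACHC.

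The 10 genes described here are the intracellular cobalamin pathway and 1 neighbour: Mmachc, Mmadhc, Lmbrd1, Mmaa, Mmab, Mtr, Mtrr, Tcn2 and Cd320, together with Ccdc163, which starts head to head with Mmachc. They were taken by gene name from a table of 23441 genes, and all 10 were found and passed the filter on low counts that left 14609 genes. Polyadenylated retinal RNA from mice at embryonic day 14.5 was sequenced in 3 libraries of a conditional knockout (CKO; genotype Chx10-Cre::GFP +/tg; Ronin flox/flox) and in 3 control libraries (Ronin flox/flox, without the transgene). Both groups had a background mixed from C57/B6, SJL/B6, 129/Sv and FVB and carried the floxed allele of Thap11, the gene for Ronin. The labels call the knockout specific to retinal progenitor cells, so deletion was directed to that lineage and not to other cells of the eye such as those of vessels or lens. The labels do not say whether replicates were separate animals. P-values here therefore speak of the spread from library to library, part of which may be technical. Every CKO library and no control came from mice with the Cre transgene, so for every difference given here the loss of Ronin and the presence of the transgene cannot be told apart.

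Thap11 itself fell in the CKO libraries, to 11.2, 10.9 and 6.38 CPM (counts per 1000000), against 68.3, 82.0 and 71.6 CPM in the controls. Its log2 fold change was -2.96 ± 0.24 (SE; edgeR quasi-likelihood test, Benjamini-Hochberg adjusted p = 0.00425). Libraries held between 23721052 and 28504391 counted reads. Control replicate 2 stood apart: its highest correlation of log2 CPM with any other library was 0.973, while CKO libraries correlated with each other at 0.985 to 0.992. A gene's SD of log2 CPM had a median of 0.098 in the CKO group and 0.326 in the control group. Retinal progenitor markers summed to between 3466 and 3566 CPM in the CKO and between 3452 and 3562 CPM in the controls, and all 7 had reads. Single markers varied more: Rax had 303, 315 and 309.8 CPM in the CKO libraries against 279, 703 and 277 CPM in the controls, and Fgf15 had 1367, 1354 and 1336 CPM in the CKO libraries against 1503, 976 and 1319 CPM in the controls. Lens markers summed to 11209, 66.8 and 837 CPM in CKO replicates 1 to 3, against 13.1 to 21.7 CPM in the controls. Periocular mesenchyme markers summed to 71.8, 185 and 76.6 CPM in control replicates 1 to 3, against 52.5 to 74.5 CPM in the CKO. In control replicate 2 most of this sum came from Col6a1 (110 CPM) and Col1a2 (64.0 CPM). The part of mesenchyme in the members' values was not tested.

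The DNA that Mmachc and Ccdc163 share is shown first, because these are the members that changed. In RefSeq on GRCm38.p6 their starts lie 210 bases apart on chromosome 4 and point away from each other. Taken whole, the 2 RefSeq gene models overlap by 46 bases, so 1 or both reach past these starts. The region between the starts, chr4:116708386-116708594 on the plus strand, reads from the Mmachc side to the Ccdc163 side as follows, with capitals for the stretch that matches ACTACANNTCCC, a motif known for THAP11.
Mmachc to Ccdc163: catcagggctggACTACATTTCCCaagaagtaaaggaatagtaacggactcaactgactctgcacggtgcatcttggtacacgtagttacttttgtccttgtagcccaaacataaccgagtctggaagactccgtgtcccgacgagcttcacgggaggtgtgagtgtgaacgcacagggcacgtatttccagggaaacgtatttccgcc
The match lies 13 to 24 bases upstream of the Mmachc start and 186 to 197 bases upstream of the Ccdc163 start. The 1 site thus stands in front of both of these starts. Where a gene model reaches past its start used here, the site can lie inside that model. RefSeq promoter windows (250 bases before to 50 after the start) were at hand for 8 members, all but Mmadhc and Tcn2. Of these, 3 held the motif on either strand: Mmachc and Ccdc163, which share the site, and Mtr. Over all 32851 promoter windows in the table the share with a match was 1.81%. Counted by gene, as the members are, 473 tested genes held it in a window and 10231 with windows did not. The Mtr site and the shared site are set out here on the strand that carries the motif, with 15 bases on each side.
Mmachc and Ccdc163, chr4:116708383-116708424, plus strand: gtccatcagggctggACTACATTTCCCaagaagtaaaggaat
Mtr, chr13:12258278-12258319, minus strand: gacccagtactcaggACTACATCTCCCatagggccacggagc
CCCANNATGC, the core of a motif known for ZNF143, was found in 1.88% of all windows and, among the members, in a single window of Lmbrd1. The 2 motifs can overlap where the last bases of the first run into the second. A match says that these letters are present, not that a protein binds them.

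**Figure D1:**
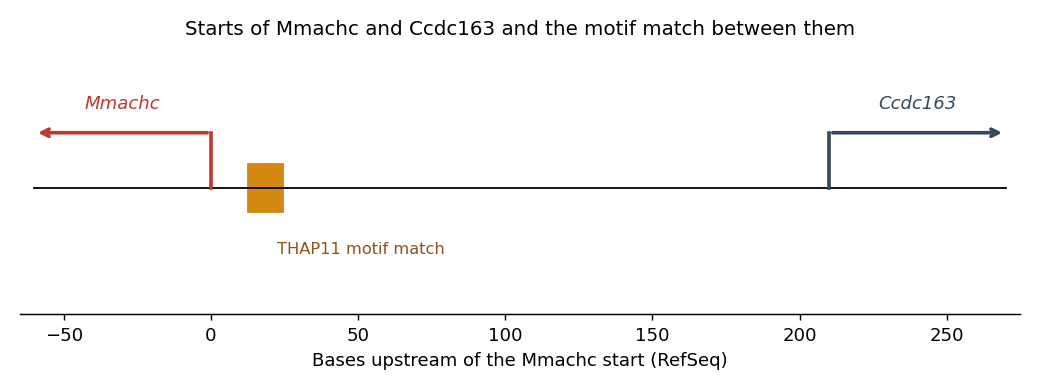
The x axis gives bases upstream of the Mmachc start, the arrows mark the RefSeq starts and directions of Mmachc and Ccdc163, and the box marks the motif match. The box lies 13 to 24 bases from the Mmachc start, and the 2 starts are 210 bases apart.

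Mmachc, the enzyme at the entry of intracellular cobalamin processing, fell steeply in the CKO retina. It had 183, 157 and 104 reads in the CKO libraries and 1046, 416 and 959 reads in the controls, which is 6.34, 5.86 and 4.25 CPM in the CKO against 41.1, 18.1 and 36.5 CPM in the controls. All CKO libraries lay below all controls, and control replicate 2 was the lowest control. The mean was 5.48 ± 1.09 CPM in the CKO and 31.9 ± 12.1 CPM in the controls (SD, n = 3 each), or 17.2% of the control level. The log2 fold change was -2.54 ± 0.33 (SE; edgeR adjusted p = 0.0165). In RNA from whole retina, fewer cells that express a gene and less RNA per cell cannot be told apart.

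Ccdc163, which encodes a coiled-coil protein whose function is little known, fell as well. Its libraries had 132, 139 and 88 reads in the CKO and 399, 732 and 624 reads in the controls, or 4.57, 5.19 and 3.60 CPM in the CKO against 15.7, 31.9 and 23.8 CPM in the controls. Again every CKO library lay below every control, here with control replicate 2 as the highest. Means were 4.45 ± 0.80 CPM in the CKO and 23.8 ± 8.13 CPM in the controls (SD, n = 3 each), a log2 fold change of -2.41 ± 0.29 (SE; edgeR adjusted p = 0.0124).

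The controls thus ordered the pair in opposite ways. Reads of Mmachc per read of Ccdc163 numbered 1.39, 1.13 and 1.18 in the CKO libraries and 2.62, 0.568 and 1.54 in control replicates 1 to 3. The ratio in the CKO lay inside the range of the controls, so no difference in the balance of the pair could be seen beyond the control spread. Strand handling in the counting remains not given in the sources used here, and reads from the overlap of the 2 gene models could be assigned to either. With both genes counted as 1, the log2 fold change was -2.49 ± 0.18 (SE; edgeR adjusted p = 0.00386).

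**Figure D2:**
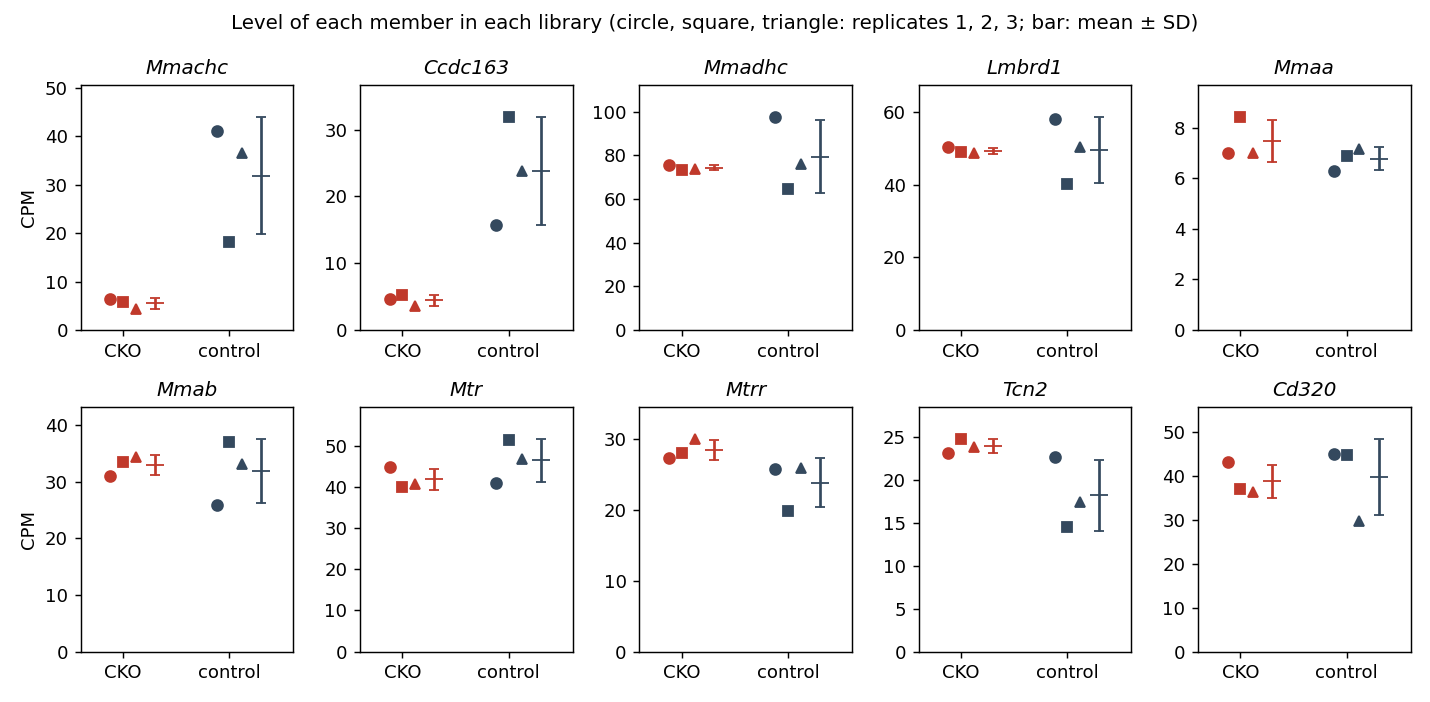
Each panel gives 1 gene, with CPM on the y axis, CKO libraries in red on the left and control libraries in blue on the right; symbols mark replicates 1 to 3 and bars the mean and SD. Mmachc and Ccdc163 lie between 3.60 and 6.34 CPM in the CKO and between 15.7 and 41.1 CPM in the controls, while the groups overlap or lie close together in the other panels.

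Of the 10 members, 2 were lower and 0 higher at an adjusted p under 0.05, where 0.705% of all genes tested were called lower and 0.192% higher (0.897% in all). The 2 lower members were also the ones whose CKO libraries all lay below the controls, as did 6.91% of all genes tested. DESeq2's Wald test and limma-voom gave the same counts of 2 lower and 0 higher, and 0 further members had an unadjusted p under 0.05 in edgeR. Leaving out 1 library ended a call in 4 of 6 cases. Both calls held when control replicate 1 was omitted (edgeR adjusted p = 0.0456 for Mmachc and 0.0161 for Ccdc163) or control replicate 2 (0.00419 and 0.0126). Omitting CKO replicate 1 gave an adjusted p of 0.0750 for Mmachc and 0.0737 for Ccdc163, with CKO replicate 3 left out it was 0.0976 and 0.0839, and for control replicate 3 it was 0.125 and 0.0976. Without CKO replicate 2, Mmachc missed the threshold at 0.0751 and Ccdc163 passed at 0.0491. The size of the change moved less: over the 6 omissions, log2 fold changes ran from -2.81 to -2.31 for Mmachc and from -2.64 to -2.13 for Ccdc163. Without CKO replicate 1, the library with the most lens RNA, they were -2.66 and -2.43.

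**Figure D3:**
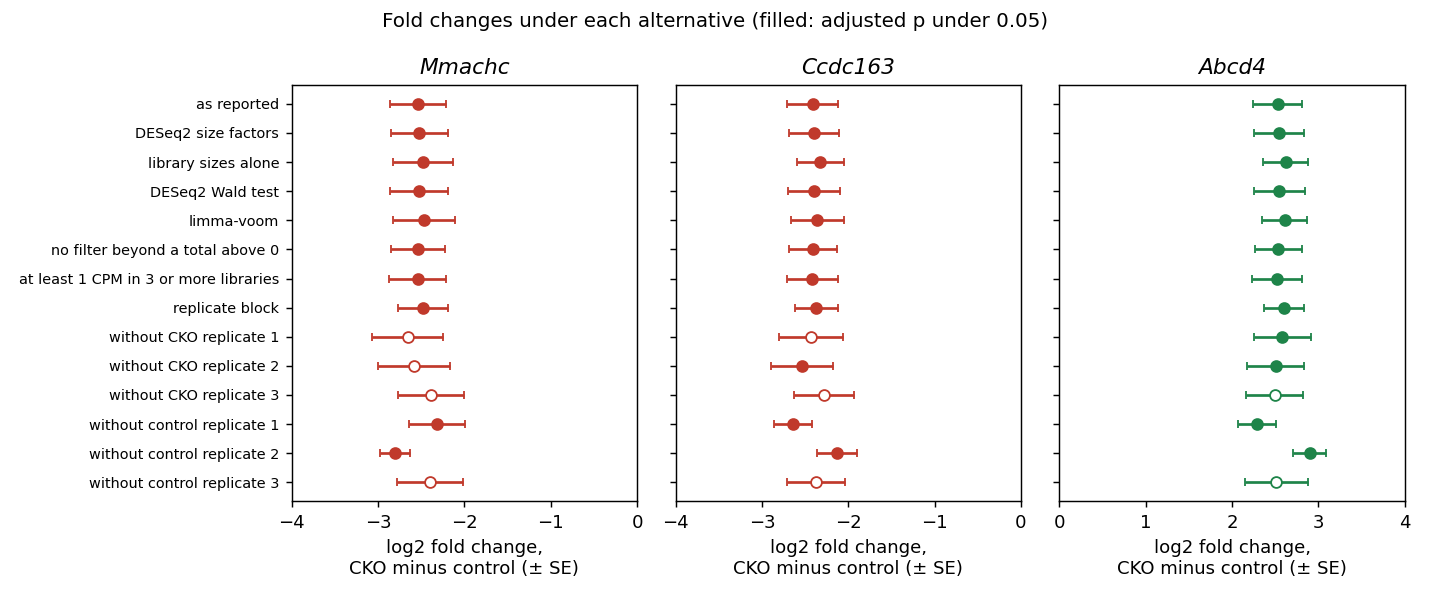
Points give the log2 fold change (CKO minus control, x axis) with its SE for Mmachc, Ccdc163 and Abcd4 under each alternative on the y axis, and filled points passed an adjusted p under 0.05. Mmachc stays between -2.81 and -2.31 and Abcd4 between 2.29 and 2.90, while the open points show which omitted libraries end the call.

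Genes beside the pair on chromosome 4 did not pass the test. Prdx1, a peroxiredoxin gene on the far side of Mmachc, stood at 88.7 ± 4.97 CPM in the CKO and 86.3 ± 35.8 CPM in the controls, with a log2 fold change of 0.04 (95% interval -0.58 to 0.66). Beyond Ccdc163, Tesk2, a kinase gene, was at -0.23 (-0.61 to 0.14) and Toe1, a nuclear deadenylase gene, at 0.23 (-0.09 to 0.55). The 3 CKO libraries lay below all controls for Tesk2 and above all controls for Toe1, a separation that 12.6% of all genes tested showed in either direction. AV051173 was counted but filtered out for low counts, and Gm25137 was not analysed here.

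**Figure D4:**
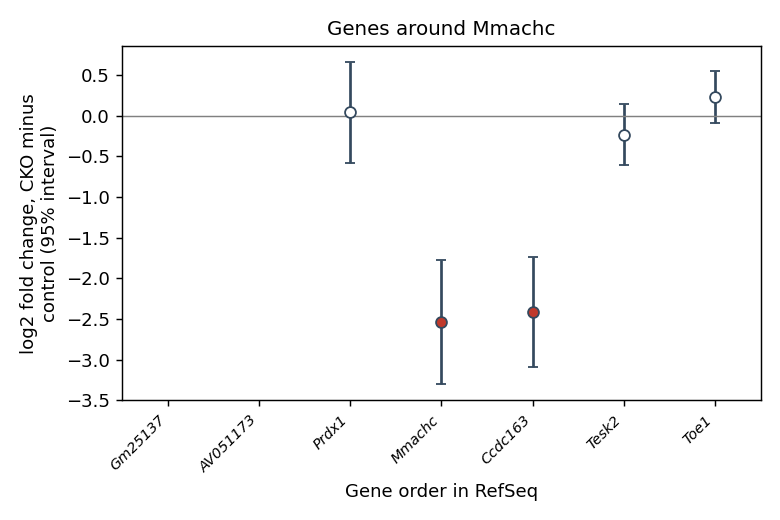
The y axis gives the log2 fold change (CKO minus control) with its 95% interval for Mmachc and the 3 genes on each side of it, in RefSeq order, with no point where a gene was not tested. Filled points, those of Mmachc and Ccdc163, passed an adjusted p under 0.05, and the intervals of Prdx1, Tesk2 and Toe1 include 0.

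Uptake genes come first in the pathway. Tcn2, which encodes the plasma carrier transcobalamin, stood at 23.2, 24.8 and 23.8 CPM in the CKO libraries against 22.6, 14.5 and 17.4 CPM in the controls. The CKO libraries lay above all controls, though replicate 1 of each genotype differed by little. Its log2 fold change was 0.39 ± 0.19 (SE), which did not pass (edgeR adjusted p = 0.819, 95% interval -0.04 to 0.83). Cd320, the cell-surface receptor for transcobalamin, stood at 38.8 ± 3.75 CPM in the CKO and 39.8 ± 8.72 CPM in the controls (SD, n = 3 each), with a log2 fold change of -0.04 (-0.48 to 0.41). Endothelium is known to carry both. The 9 blood vessel markers summed to between 249.96 and 270.2 CPM in the CKO and between 286 and 341 CPM in the controls. Kdr made up most of the reads, at 232 to 243 CPM in the CKO and 247 to 306 CPM in the controls. The other 8 summed to between 18.3 and 31.7 CPM in the CKO and between 33.7 and 44.8 CPM in the controls, and the part of vessel content in these 2 genes was not tested.

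Lysosomal release and the trafficking step after MMACHC are served by Lmbrd1, a lysosomal membrane protein, and Mmadhc, which directs cobalamin to the cytosolic or the mitochondrial branch. Lmbrd1 ranged from 48.9 to 50.3 CPM in the CKO and from 40.1 to 58.3 CPM in the controls, so that the CKO range lay within that of the controls. Its log2 fold change was -0.01 (-0.39 to 0.37). Mmadhc ranged from 73.4 to 75.6 CPM in the CKO and from 64.7 to 97.6 CPM in the controls, with a log2 fold change of -0.10 (-0.49 to 0.30). These intervals leave out a change as large as that of Mmachc.

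On the mitochondrial branch, Mmaa, a GTPase that guards the mutase, had 6.99, 8.44 and 6.99 CPM in the CKO against 6.28, 6.89 and 7.16 CPM in the controls. Mmab, the adenosyltransferase that makes adenosylcobalamin, ranged from 31.0 to 34.4 CPM in the CKO and from 25.8 to 36.9 CPM in the controls. Log2 fold changes were 0.14 (-0.27 to 0.55) for Mmaa and 0.04 (-0.34 to 0.43) for Mmab. Neither passed the test, and both genes overlapped between the groups.

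On the cytosolic branch, Mtr encodes methionine synthase and Mtrr the reductase that keeps it active. Mtr, whose promoter window holds the motif shown above, had 44.7, 39.9 and 40.8 CPM in the CKO libraries against 41.0, 51.5 and 46.9 CPM in the controls. The groups overlapped, and its log2 fold change was -0.15 ± 0.14 (SE; edgeR adjusted p = 0.940, 95% interval -0.48 to 0.18). Mtrr had 27.4, 28.0 and 30.1 CPM in the CKO libraries against 25.8, 19.8 and 26.0 CPM in the controls. All CKO libraries were the higher ones, by a margin smaller than the spread of the controls, and the log2 fold change of 0.26 ± 0.16 did not pass (adjusted p = 0.916, interval -0.11 to 0.62).

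Apart from Mmachc and Ccdc163, then, 0 of 8 members passed with edgeR, with DESeq2 or with limma-voom, and 0 had an unadjusted p under 0.05. Their median log2 fold change was 0.02, beside -0.03 over all genes tested, and 4 of the 8 were above 0. The CKO and control libraries were separate for 2 of the 8, Tcn2 and Mtrr, both higher; 5.74% of all genes tested were separate and higher. Across the alternatives Mmadhc, Lmbrd1, Mmab and Cd320 took either sign, so no direction is given for them.

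Because a long transcript collects more reads, levels of different members were compared as CPM per kilobase of merged exon, with exon lengths from GENCODE on a later genome build than that of the counts. On this scale Mmadhc was the most abundant member, at 55.4 ± 0.86 in the CKO and 59.2 ± 12.5 in the controls (SD, n = 3 each). Cd320 followed at 16.0 ± 1.55 in the CKO and 16.5 ± 3.61 in the controls. Mmachc held rank 9 of 10 in the CKO, at 2.60 ± 0.52, and rank 3 in the controls, at 15.2 ± 5.76. Ccdc163 stood beside it in both genotypes, at 2.72 ± 0.49 in the CKO and 14.5 ± 4.97 in the controls. In the controls Cd320, Mmachc and Ccdc163 did not differ beyond their spread, nor did the next group of Lmbrd1, Mmab and Tcn2, between 8.35 and 8.96 on average. Mmaa was the least abundant in both, at 1.32 ± 0.15 in the CKO and 1.20 ± 0.08 in the controls.

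Other genes that handle cobalamin were followed through a list of 7, of which 5 passed the filter. Of these, 1 rose: Abcd4, a lysosomal membrane transporter that works with LMBRD1 to export cobalamin. It had 3049, 3159 and 2933 reads in the CKO libraries and 321, 657 and 482 reads in the controls, or 106, 118 and 120 CPM in the CKO against 12.6, 28.7 and 18.3 CPM in the controls. The log2 fold change was 2.53 ± 0.29 (SE; edgeR adjusted p = 0.0101), and the groups were far apart. There were 16.7, 20.1 and 28.2 reads of Abcd4 for each read of Mmachc in CKO replicates 1 to 3, against 0.307, 1.58 and 0.503 in control replicates 1 to 3. The call was lost when CKO replicate 3 (adjusted p = 0.0621) or control replicate 3 (0.105) was left out, while the log2 fold change stayed between 2.29 and 2.90 over the 6 omissions.

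Lrp2, the endocytic receptor megalin, which takes up transcobalamin in kidney, is singled out after its values were seen. It had 20.2, 21.5 and 17.3 CPM in the CKO libraries against 39.9, 36.1 and 29.5 CPM in the controls. All CKO libraries were below the controls, as for 6.91% of all genes tested. The log2 fold change of -0.84 ± 0.17 missed the threshold in edgeR (adjusted p = 0.101). Limma-voom also missed it (adjusted p = 0.120), while DESeq2's Wald test passed it (0.00160). That was the 1 alternative of 13 in which Lrp2 passed, and it passed in 0 of the 6 omissions. Pigment epithelium is another known site of its expression, and markers of that tissue summed to between 35.2 and 41.1 CPM in the CKO and between 39.0 and 81.3 CPM in the controls; their part in the result was not tested. Cubn, Abcc1 and Clybl did not pass, at log2 fold changes of -0.30, -0.08 and -0.05.

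The enzymes that depend on the 2 cofactors were followed in 2 further lists. Of 8 genes from propionate to succinyl-CoA, the branch of methylmalonyl-CoA mutase, 0 passed with edgeR, DESeq2 or limma-voom and 0 had an unadjusted p under 0.05. Their median log2 fold change was 0.08, within a range of -0.22 to 0.29. The mutase gene itself, listed as Mut, stood at 32.2 ± 0.57 CPM in the CKO and 31.5 ± 11.1 CPM in the controls. Suclg1, a succinyl-CoA ligase subunit and the most counted of the list, stood at 94.8 ± 6.45 CPM in the CKO and 79.9 ± 19.0 CPM in the controls (SD, n = 3 each).

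Of 13 genes of the methionine cycle and homocysteine, 10 passed the filter and 0 passed the test with edgeR, DESeq2 or limma-voom, with 0 at an unadjusted p under 0.05. Their median log2 fold change was 0.21 beside -0.03 over all genes tested. Of the 10, 8 were above 0, beside 6569 of all 14609 genes tested. The CKO and control libraries were separate for 0 of the 10. Ahcyl1, a relative of the S-adenosylhomocysteine hydrolase gene and the most counted of the list, stood at 305 ± 6.14 CPM in the CKO and 283 ± 24.8 CPM in the controls. Mat2a, which makes S-adenosylmethionine from the methionine that MTR supplies, had 225, 306 and 305 CPM in the CKO libraries against 186, 188 and 286 CPM in the controls. The groups overlapped, and its log2 fold change was 0.34 (-0.16 to 0.84).

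The proteins known to act with THAP11 on MMACHC did not pass the test at the RNA level. Hcfc1 had 343, 343 and 337 CPM in the CKO libraries against 353, 406 and 492 CPM in the controls. All CKO libraries lay below all controls, as for 6.91% of all genes tested, and the log2 fold change was -0.29 (95% interval -0.64 to 0.06; edgeR adjusted p = 0.875). Zfp143 was at 45.3 ± 2.17 CPM in the CKO and 41.0 ± 11.3 CPM in the controls (SD, n = 3 each).

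**Figure D5:**
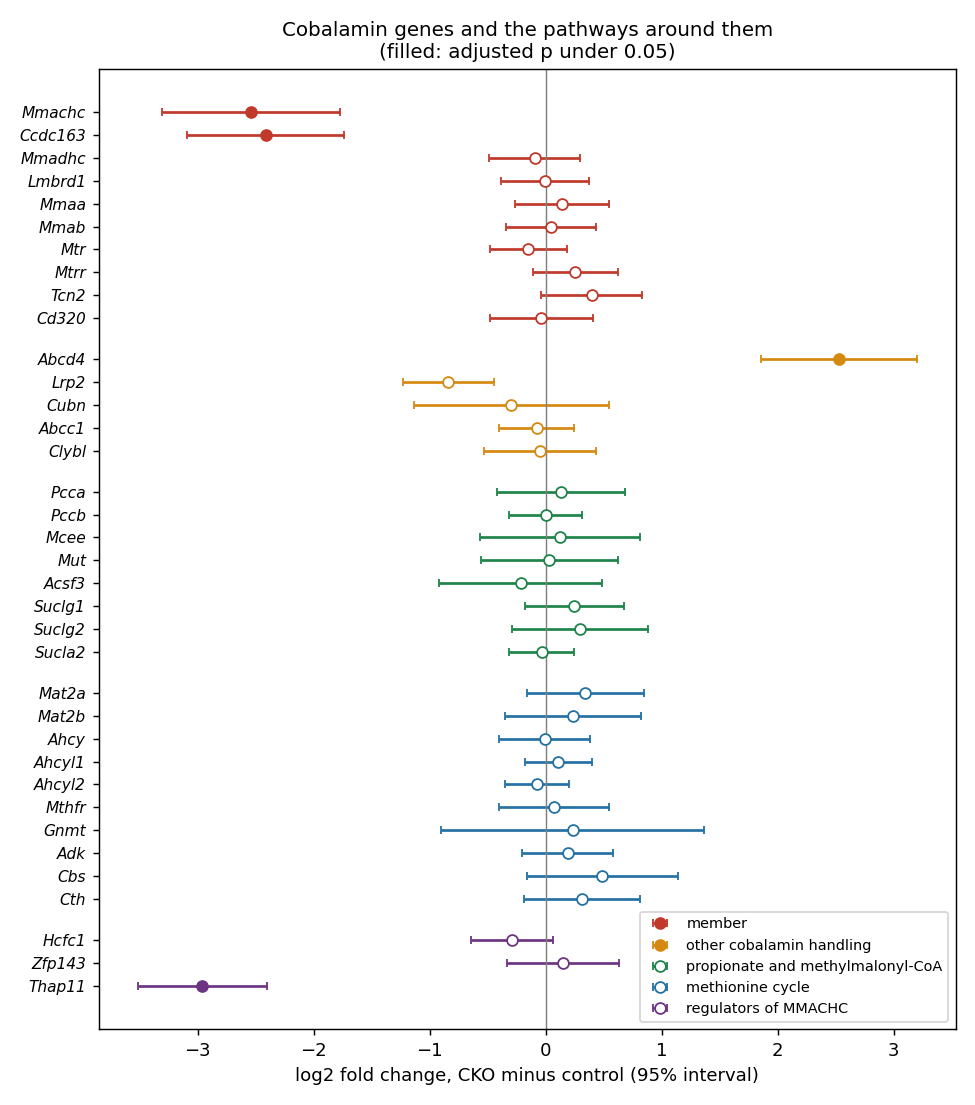
The x axis gives the log2 fold change (CKO minus control) with its 95% interval for each tested gene, grouped by list on the y axis, and filled points passed an adjusted p under 0.05. Mmachc lies at -2.54, Ccdc163 at -2.41, Thap11 at -2.96 and Abcd4 at 2.53, and the other points lie between -0.84 and 0.49.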

How the data were processed

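The authors deposited raw read counts per gene symbol for 6 libraries. BWA 0.7.6a-r433, HTSeq 0.5.4p3, DESeq 2.13 and build mm9 are named, per the submitters' processing notes, without roles; annotation and strand setting remain not given in the sources used here. Lines left by a merge conflict were skipped, and 1 gene repeated with identical counts was kept once. No row lacked a gene name. Counting by symbol can divide reads of overlapping genes.

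Genes were filtered with filterByExpr (minimum count 10), scaled by TMM and tested in R 4.3.3 with edgeR 4.0.16's quasi-likelihood F test on genotype alone. P-values were Benjamini-Hochberg adjusted over all 14609 genes (threshold 0.05). CPM are per 1000000 TMM-scaled reads, and SE is the absolute log2 fold change over the square root of F. Alternatives used DESeq2 1.42.0, limma-voom (limma 3.58.1), other scalings and filters, a replicate block and omission of each library. The fit was checked on simulated counts. The least different pair of libraries had a chi-square of 5.77 per degree of freedom, so all 6 were kept as separate libraries. Motifs were searched in RefSeq promoter windows (GRCm38.p6).

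The members and lists were chosen with earlier results of these data known. Named were all members, Thap11, called genes of each list or else its most counted gene, and the 3 genes on each side of Mmachc; Mut, Hcfc1, Zfp143, Mat2a and the uncalled cobalamin genes were named beyond this rule. An item among the progenitor markers is not reported here.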

Additional observations from a re-analysis of the deposited data

How the results depend on the processing

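The count of 2 members lower and 0 higher held with DESeq2 size factors, library sizes alone, DESeq2's Wald test, limma-voom and both other filters. At an adjusted p under 0.01, 0 members were lower, with 31 lower and 8 higher over all genes. DESeq2's Wald test called 207 genes lower and 117 higher, against 103 and 28 in edgeR. With 1 library left out, members lower numbered 0 to 2, genes lower 10 to 147 and genes higher 6 to 72; the cause was not tested, though each such fit has fewer samples. Replicate numbers are shared by label only: deviations of same-numbered libraries correlated at 0.336, 0.107 and -0.00775, and 2 of 6 libraries correlated best with their own number. With the number as a replicate block, 2 members were lower and 0 higher, and 113 genes were lower and 40 higher. No result among the members reversed with a call. The spread differed between genotypes while the fit shares 1 dispersion per gene. The lowest count of any member in a library was 88 reads.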

Other observations

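Genes whose libraries ran most like Mmachc were sought over all 14609 genes tested, by the root-mean-square difference in log2 CPM centred on each gene's mean over the 6 libraries. The 5 nearest were Zfp72 (0.122), Zfp493 (0.217), Setmar (0.228), Nat2 (0.247) and Zfp418 (0.286), while Ccdc163 came at rank 75 (0.652), its controls running in the other order. The nearest, Zfp72, had 0.658, 0.672 and 0.368 CPM in the CKO libraries against 4.08, 1.83 and 3.54 CPM in the controls, so that control replicate 2 was the lowest control here too. RefSeq promoter windows were at hand for 3 of the 5, and the THAP11 motif lay in those of Zfp72 and Setmar, shown here with the match in capitals on the strand that carries it, to set beside the Mmachc site. The third window, that of Zfp418, held the ZNF143 core and no THAP11 motif. Genes near Mmachc on this measure fell in the CKO, and of all 83 genes called lower that had a window, 63 (75.9%) held the THAP11 motif, so 2 of 3 says nothing particular to them.
Zfp72, chr13:74390856-74390897, plus strand: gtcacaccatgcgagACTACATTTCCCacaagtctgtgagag
Setmar, chr6:108064965-108065006, plus strand: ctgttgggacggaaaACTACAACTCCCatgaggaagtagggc

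Mtr, which holds the motif and was not called, can be set beside all genes. Of 473 tested genes with the THAP11 motif in a promoter window, 63 (13.3%) were called lower and 7 (1.48%) higher in the CKO libraries; of 10231 tested genes whose windows lacked it, 20 (0.195%) were called lower and 12 (0.117%) higher. Most genes with the motif, like Mtr, were thus not called. These are counts over genes of the same 6 libraries, looked at after the members' values were seen and given without a test. For the ZNF143 core, 14 of 316 tested genes with a match (4.43%) were called lower and 4 (1.27%) higher; of 10388 without it, 69 (0.664%) were called lower and 15 (0.144%) higher.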
